A study of Mus musculus with 15 samples.

Results

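The genes described here encode the central and terminal components of the complement cascade that the liver secretes: C3, the C4 pair C4a and C4b, Hc (hemolytic complement, which encodes C5), C6, the 3 chains of C8 (C8a, C8b and C8g) and C9. They are the 9 rows of the count table that carry these symbols, out of 55573 genes, and all 9 passed the filter on low counts that left 17655 genes for testing. C7, the other component of the terminal pathway, was not among them and is given with the rest of the complement system.

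Liver RNA of 15 mice aged 8 weeks was sequenced after removal of ribosomal RNA, 1 library per mouse, to ask how the loss of estrogen receptor alpha (ESR1) affects sex-biased expression. The 4 groups were wild type (WT) mice, 3 females and 3 males, and ESR1KO mice, 5 females and 4 males. All carried the strain label B6N(Cg)-Esr1tm4.2Ksk/J. ESR1KO mice are homozygous for a deletion of Esr1 exon 3 in every tissue, not only in hepatocytes, and the study's text describes them as infertile with raised testosterone in both sexes, so a difference between ESR1KO and WT liver cannot be assigned to ESR1 in the liver itself. The labels do not say whether the WT and mutant mice were littermates.

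Complement is a set of plasma proteins that tags and destroys microbes, and most of them are made by hepatocytes. Antibody, bound lectins or a spontaneous turnover of C3 lead to enzymes that cleave C4, C2 and C3. The C3 fragment then coats the target, and with more C3 deposited the same enzymes cleave C5. Cleaved C5 binds C6 and C7, C8 inserts into the membrane, and a ring of C9 molecules completes the membrane attack complex. A sex difference in the activity of the terminal components has long been known in mouse plasma, with higher activity in males.

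C4a and C4b are near-identical copies, so the share of sequence that tells them apart bears on every value given for them. In GENCODE M21 on GRCm38, the C4b transcript of 5379 bases and the C4a transcript of 5371 bases were 96.1% identical over 5367 aligned bases. Of all 50-base windows of the C4a transcript, 35.2% also occurred without a mismatch in C4b, against 16.5% of 100-base windows and 8.27% of 150-base windows. C4b lies at chr17:34728380-34743882 and C4a at chr17:34809092-34823464, both on the minus strand and 65.2 kb apart, and this annotation gives C4a the type processed transcript, without a coding sequence. The stretch printed here is the 75-base piece in which they differ most, at chr17:34816086-34816160 in C4a and chr17:34735430-34735504 in C4b, in an exon of both genes. Capitals mark the 13 bases that differ.
C4a: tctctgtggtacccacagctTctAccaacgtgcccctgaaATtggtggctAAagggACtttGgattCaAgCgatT
C4b: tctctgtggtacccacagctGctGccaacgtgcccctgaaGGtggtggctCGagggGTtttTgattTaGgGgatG

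Promoters are shown for C6, C8a, C8b and C9, the terminal genes that moved together in the data. RefSeq (GRCm38.p6) gave a promoter entry for 7 of the 9 members. The 250 bases before each RefSeq start were searched on both strands for 5 motifs: TTCNNNGAA (the STAT5 and BCL6 type), AGGTCA (a half-site of estrogen and other nuclear receptors), AGAACA (a half-site of androgen and glucocorticoid receptors), TTGCNNAA (C/EBP) and GTTAAT (HNF1). Capitals mark matches in the printed sequences, which run 5′ to 3′ on the gene's strand and end at the RefSeq start, except that of C6, which ends 16 bases before it.
C6, chr15:4726960-4727194, plus strand: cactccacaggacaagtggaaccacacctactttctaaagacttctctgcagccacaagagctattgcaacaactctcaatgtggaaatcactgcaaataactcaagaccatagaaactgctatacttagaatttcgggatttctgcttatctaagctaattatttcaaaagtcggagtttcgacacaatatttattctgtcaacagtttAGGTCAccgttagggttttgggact
C8a, chr4:104876399-104876648, minus strand: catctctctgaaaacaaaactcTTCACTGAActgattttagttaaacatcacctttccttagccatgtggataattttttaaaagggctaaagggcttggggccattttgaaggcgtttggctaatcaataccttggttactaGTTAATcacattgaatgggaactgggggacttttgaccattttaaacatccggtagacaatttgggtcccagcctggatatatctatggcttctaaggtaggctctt
C8b, chr4:104766067-104766316, plus strand: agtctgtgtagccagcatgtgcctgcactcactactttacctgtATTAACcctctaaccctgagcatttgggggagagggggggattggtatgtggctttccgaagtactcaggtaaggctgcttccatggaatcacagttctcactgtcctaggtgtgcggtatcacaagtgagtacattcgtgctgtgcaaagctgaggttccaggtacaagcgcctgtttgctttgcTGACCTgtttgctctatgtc
C9, chr15:6445096-6445345, plus strand: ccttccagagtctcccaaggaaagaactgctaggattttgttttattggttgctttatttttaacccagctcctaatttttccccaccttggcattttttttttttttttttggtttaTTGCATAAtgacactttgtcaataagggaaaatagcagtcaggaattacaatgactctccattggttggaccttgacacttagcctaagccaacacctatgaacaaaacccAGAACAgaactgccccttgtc

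None of the 5 motifs was common to the 4 promoters. C6 held AGGTCA 40 to 35 bases before its start, and C8b held the reverse complement of the same letters 20 to 15 bases before its start. C8a held TTCACTGAA 228 to 220 bases before its start. The neighbours C8a and C8b both held the HNF1 letters, as GTTAAT 107 to 102 bases before the start of C8a and as its reverse complement, ATTAAC, 206 to 201 bases before that of C8b. C9 held AGAACA 21 to 16 bases and TTGCATAA 132 to 125 bases before its start. Apart from TTCNNNGAA, the same letters also occurred among the other members with a promoter entry, which did not share the pattern of these 4. C3 held AGGTCA 243 to 238 bases and TTGCGAAA 45 to 38 bases before its start. Hc held ATTAAC 74 to 69 bases before its start, and C8g held AGAACA 151 to 146 bases before its start at chr2:25500506. Over 32536 RefSeq promoter windows of this length, 14.04% held AGGTCA, 7.041% TTCNNNGAA, 16.03% AGAACA, 9.571% TTGCNNAA and 6.467% GTTAAT on either strand. These matches describe the letters only and do not show binding.

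Esr1 itself was measured first. Levels are given in CPM, the counts of a gene relative to its library's total as scaled by edgeR's TMM factors. The mean of Esr1 was 81.9 CPM in WT females, 36.1 CPM in WT males, 13.1 CPM in ESR1KO females and 11.8 CPM in ESR1KO males, and no ESR1KO mouse reached the lowest WT level. The highest ESR1KO value was 19.7 CPM and the lowest WT value 25.0 CPM. Counts are per gene, so transcripts that lack exon 3 would still be counted. The hepatocyte markers were present in all mice, with Alb between 53546 and 91604 CPM, while Cd3e of T cells stayed at or below 0.504 CPM and Krt7 of bile duct cells at or below 1.16 CPM.

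Total counts per library ranged from 27799061 to 78624766. One pattern between libraries was found: among ESR1KO females, the deviation of genes from their group mean followed the GC content of their transcripts. The cause of this relation was not tested, and no label names a batch. Over 4175 well expressed genes, Spearman's rho of this relation was -0.70 and -0.52 in replicates 1 and 2 (FKO1 and FKO2) and 0.59, 0.49 and 0.55 in replicates 3, 4 and 5, against -0.17 to 0.22 in the 10 other libraries. Genes are not independent replicates, so rho is given as a description. C3, C4a, C4b and C8g have transcripts of 53.3% to 55.3% GC and the other 5 members of 43.4% to 48.2% GC. The edgeR model was therefore refitted without FKO1 and FKO2, and separately with each library's GC trend taken into the model as an offset. Both fits were added after the data were seen.

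In WT liver, C4a and 4 genes of the membrane attack complex carried a strong male bias, and in ESR1KO mice of either sex they stood between the WT sexes. C4a, C6, C8a, C8b and C9 were all lower in WT females than in WT males, all higher in ESR1KO than in WT females, and no sex difference in any of them passed the test among ESR1KO mice. Hc was also male-biased in WT mice but fell to the female level in ESR1KO males without rising in ESR1KO females. C3 had its highest values in WT females, while C4b and C8g differed little between the groups.

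**Figure D1:**
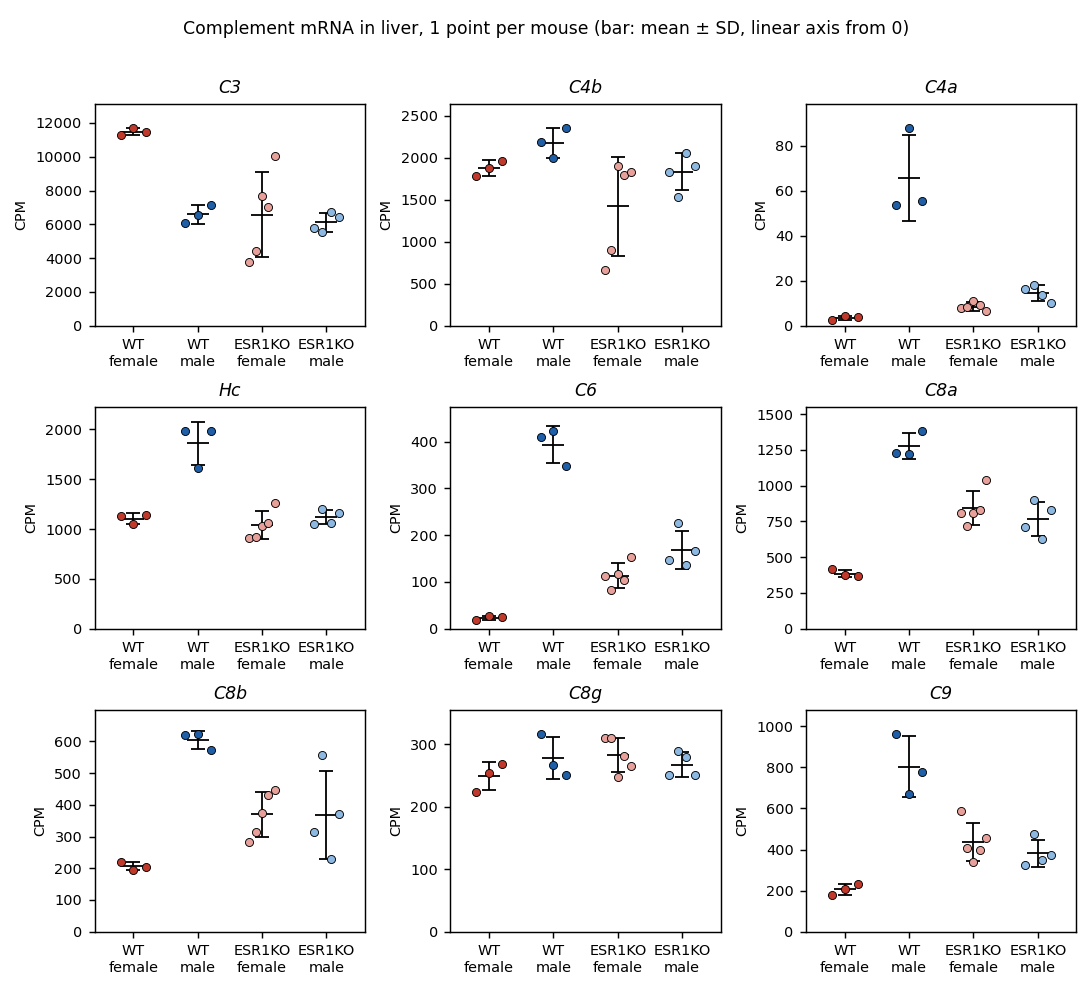
Normalized level of each gene in CPM (vertical axes, linear and starting at 0) in the 2 WT and the 2 ESR1KO groups, with 1 point per mouse and bars for the mean ± SD (n = 3, 3, 5 and 4). For C4a, C6, C8a, C8b and C9 every ESR1KO mouse lies above all WT females and below all WT males. The ESR1KO females split into a low pair and 3 higher mice for C3 and C4b. The same pair is also lowest for Hc and C8b.

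Differences were tested with edgeR's quasi-likelihood test in 1 model over all 15 libraries, with p adjusted over 17655 genes, and an adjusted p under 0.05 was taken as a call. Between WT females and WT males, 6 of the 9 genes were called, all of them lower in females, where 4.87% of all tested genes were called and 2.20% were called lower in females. Of the 6, 5 also differed by at least 1.5 on the log2 scale, a threshold the study used, which 1.81% of all genes met. The median log2 difference was -1.55 over the 9 genes and 0.01 over all tested genes. In bulk tissue, fewer cells of a type and less RNA per cell cannot be told apart.

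Between ESR1KO females and ESR1KO males, edgeR called 0 of the 9 genes, against 0.272% of all tested genes, or 0.142% with a log2 difference of at least 1.5. At an unadjusted p under 0.05 it found 2 of the 9, C4a and C6, where 17.5% of all genes were found. DESeq2 called C4a alone. The median log2 difference was 0.01 over the 9 genes.

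Between ESR1KO and WT females, 5 of the 9 were called, all higher in ESR1KO, where 5.71% of all genes were called and 3.14% were called higher. C6 alone passed the 1.5 threshold, against 1.20% of all genes. Between ESR1KO and WT males, 5 of the 9 were called, all lower in ESR1KO, where 1.42% of all genes were called and 0.583% were called lower. Here C4a alone passed the 1.5 threshold, against 0.578% of all genes. The median log2 difference over the 9 genes was 0.84 in females and -0.73 in males, and over all tested genes it was 0.00 in both.

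Without FKO1 and FKO2 the same 5 genes were called in females, at log2 differences of 1.30 for C4a (adjusted p = 0.0201), 2.40 for C6 (adjusted p = 1.45e-05), 1.21 for C8a (adjusted p = 0.000164), 1.02 for C8b (adjusted p = 0.0221) and 0.95 for C9 (adjusted p = 0.00635). With the GC offset these 5 and C3 were called. Both fits called the same 5 genes in males as the full model, and 0 between the ESR1KO sexes.

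The interaction term, how far the effect of the genotype in females exceeds the effect in males, is by construction also the sex difference in ESR1KO mice minus that in WT mice. It was called for 5 of the 9, C4a, C6, C8a, C8b and C9, all positive and all of at least 1.5, where 1.94% of all genes were called, 1.02% were called with a positive sign and 1.09% were called with a size of at least 1.5. These comparisons share their WT or ESR1KO mice and are therefore not independent of each other.

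**Figure D2:**
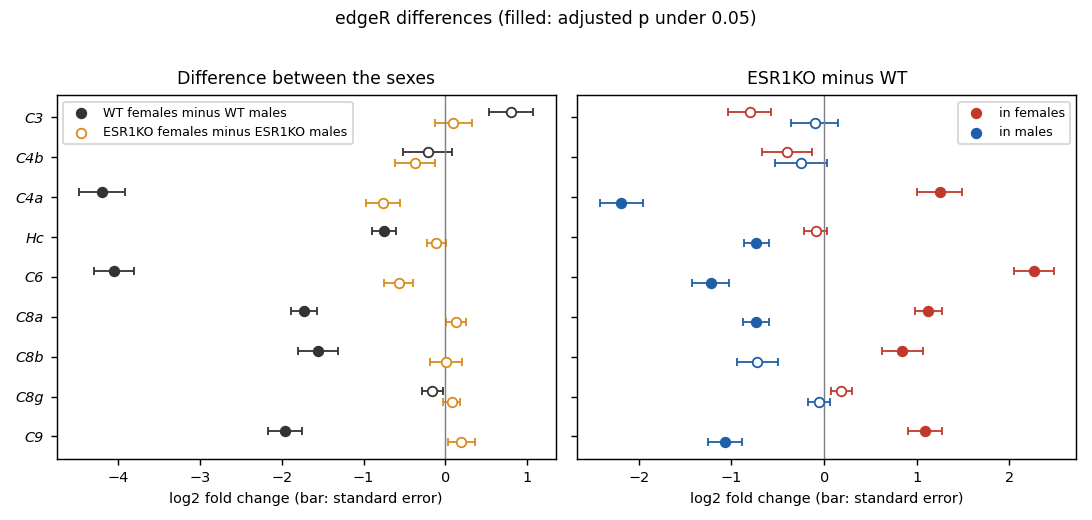
Log2 fold changes (horizontal axis, with standard errors) of the 9 genes between the sexes within each genotype (left) and between the genotypes within each sex (right), with filled points for an adjusted p under 0.05. The 6 genes called in WT mice are filled on the female-low side, 0 are filled in ESR1KO mice, and on the right C4a, C6, C8a and C9 are filled on opposite sides in females and males.

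An ordering shared by 5 of the 9 members was rare among all tested genes. For C4a, C6, C8a, C8b and C9, all 9 ESR1KO mice had levels above every WT female and below every WT male. Only 38 of all 17655 tested genes, or 0.215%, had this ordering, and 36 of them were among the 388 genes called lower in WT females, 9.28% of that set. Hc had 3 ESR1KO mice in this interval, and C3, C4b and C8g had 0. The ordering was read from the same mice as the calls, so these counts are a description with no test.

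The intermediate level was expressed as a position, with 0 at the mean log2 CPM of WT females and 1 at that of WT males. C4a stood at 0.297 ± 0.072 in ESR1KO females (SD, n = 5) and at 0.478 ± 0.091 in ESR1KO males (SD, n = 4). C6 stood at 0.553 ± 0.081 and 0.694 ± 0.079, on the male side of the middle in both sexes. For C8a the order of the sexes turned, with 0.647 ± 0.11 in ESR1KO females and 0.568 ± 0.13 in ESR1KO males. C8b stood at 0.529 ± 0.18 and 0.490 ± 0.34, with the widest spread, and C9 at 0.547 ± 0.15 and 0.451 ± 0.12. For each of these 5 genes the values of ESR1KO females and males overlapped. Without FKO1 and FKO2 the means of ESR1KO females (n = 3) were 0.309 for C4a, 0.588 for C6, 0.697 for C8a, 0.652 for C8b and 0.484 for C9.

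**Figure D3:**
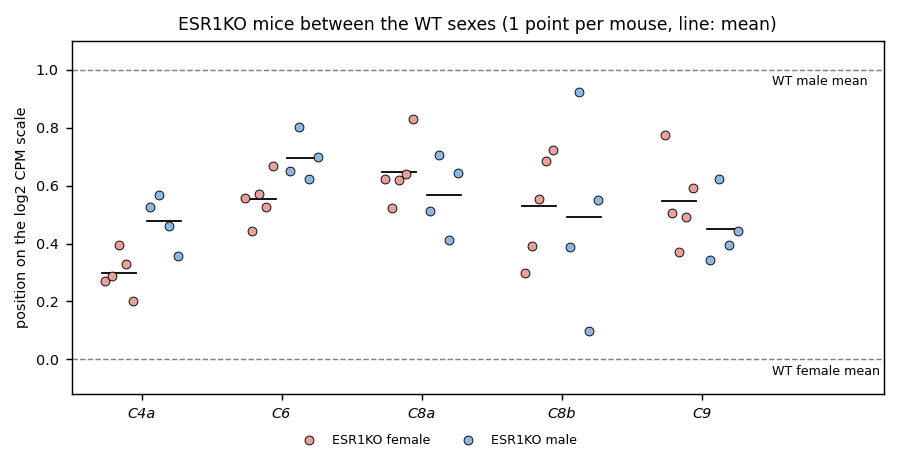
Position of each ESR1KO mouse on the log2 CPM scale (vertical axis) between the mean of WT females (0, dashed line) and the mean of WT males (1, dashed line) for C4a, C6, C8a, C8b and C9, with lines at the group means. All points lie between the dashed lines. C4a has the lowest mean position among ESR1KO females (0.297) and C9 among ESR1KO males (0.451), and the lowest single point is an ESR1KO male for C8b (0.0996).

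C3 is cleaved by every activation route, and its larger fragment marks targets for uptake. Per kilobase of exon it was the most abundant of the 9, with group means of 1193 to 2234 CPM per kb against 249 to 382 CPM per kb for C4b, the next. The gene lies at chr17:57203970-57228136. C3 was at 11307, 11707 and 11459.5 CPM in WT females, at 6050.0, 6555 and 7165 CPM in WT males, and at 5801, 5533, 6751 and 6458 CPM in ESR1KO males. ESR1KO females had 3748, 4434, 7692, 7007 and 10017 CPM. Every other mouse thus lay below the WT females, and the ESR1KO females spanned a 2.67-fold range while no other group spanned more than 1.22-fold.

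C3 was 1.74-fold higher in WT females than in WT males (log2 difference 0.80 ± 0.27 SE, adjusted p = 0.115), which edgeR did not call although the values did not overlap. Without FKO1 and FKO2, whose spread enters the shared variance estimate, the same difference of 0.80 was called (adjusted p = 0.00189). It was also called by DESeq2 (adjusted p = 0.0438) and missed the threshold with the GC offset (adjusted p = 0.0564). Between ESR1KO and WT females the log2 difference was -0.80 ± 0.24 (adjusted p = 0.0567), and without FKO1 and FKO2 it was -0.48 (adjusted p = 0.0601). This difference lay close to the threshold, and 5 of 9 other fits called it, DESeq2 (-0.81, adjusted p = 0.0106), the GC offset (-0.75, adjusted p = 0.0334), the replicate block (-1.13, adjusted p = 0.00659) and both other filters on low counts (adjusted p = 0.0391 and 0.0494). It was also called without FKO5 (-1.01, adjusted p = 0.00980). ESR1KO and WT males differed by -0.10 ± 0.25 on the log2 scale (adjusted p = 0.923). The interaction for C3 was -0.70 ± 0.35 (adjusted p = 0.369).

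C4b encodes the C4 that, once cleaved, forms the C3-cleaving enzyme of the classical and lectin routes together with C2. It was at 1778, 1879 and 1962 CPM in WT females, at 2185, 1993 and 2353 CPM in WT males and between 1530.0 and 2057 CPM in ESR1KO males. In ESR1KO females it was at 659 and 903 CPM in FKO1 and FKO2 and at 1904, 1796 and 1829 CPM in the others, which lay among the WT females. None of the 5 comparisons was called for C4b. The log2 difference between ESR1KO and WT females, -0.40 ± 0.27 (adjusted p = 0.393), became -0.02 without FKO1 and FKO2, and the interaction changed sign from -0.15 to 0.23. With the GC offset the difference in females was -0.34 (adjusted p = 0.389) and the interaction kept its sign at -0.05 (adjusted p = 0.969).

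FKO1 and FKO2 were the lowest ESR1KO females for C3 and C4b. They were also the lowest for Hc and C8b, whose transcripts have a lower GC content than those of C3 and C4b. For C8g they were the highest. FKO3 to FKO5 lay close together for C4b, at 1796 to 1904 CPM, but still ranged from 7007 to 10017 CPM for C3. The mean level of FKO1 and FKO2 was 0.497 times that of FKO3 to FKO5 for C3 and 0.424 times for C4b, the members with high GC content and high expression. For C9, with the lowest GC content of the 9, it was 1.25 times, and for C8g, with a high GC content, 1.17 times. Between these extremes the ratios of the other members were 0.894 for C4a, 0.858 for C8a, 0.818 for Hc, 0.778 for C6 and 0.716 for C8b. The part of GC content in these ratios was not tested.

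**Figure D4:**
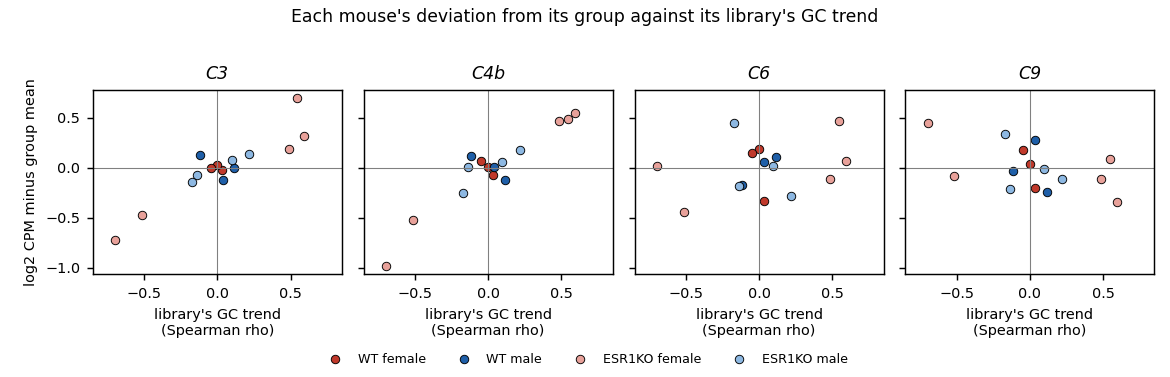
Deviation of each mouse from its group mean in log2 CPM (vertical axis) for C3, C4b, C6 and C9 against the GC trend of its library, Spearman's rho between gene deviations and transcript GC (horizontal axis). FKO1 and FKO2 sit at the left at rho -0.70 and -0.52, lowest for C3 and C4b, while FKO1 is highest of its group for C9. Not shown are Hc and C8b, for which FKO1 and FKO2 were also the lowest ESR1KO females, and C8g, for which they were the highest.

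C4a encodes the sex-limited protein (Slp), a C4 copy that was named for its male-limited presence in the plasma of some mouse strains. Its group means of 0.580 to 10.6 CPM per kb of exon were far below those of C4b. C4a was at 2.61, 4.29 and 3.90 CPM in WT females and at 53.7, 87.8 and 55.4 CPM in WT males. ESR1KO females had 7.73, 8.16, 11.1, 9.22 and 6.32 CPM, and ESR1KO males 16.3, 18.2, 13.5 and 9.93 CPM. The WT groups were far apart and the ESR1KO groups overlapped by 1 mouse of each sex.

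C4a was 18.3-fold lower in WT females than in WT males (log2 difference -4.20 ± 0.28, adjusted p = 3.70e-08), the widest sex difference of the 9. It was 2.37-fold higher in ESR1KO than in WT females (adjusted p = 0.00612) and 4.55-fold lower in ESR1KO than in WT males (adjusted p = 9.17e-05). Without the first WT female the difference in females was 1.05 on the log2 scale and missed the threshold (adjusted p = 0.0503). The interaction was 3.43 ± 0.34 (adjusted p = 1.22e-05), and 3.49 without FKO1 and FKO2. Between ESR1KO females and males the log2 difference was -0.76 ± 0.21, or -0.71 without FKO1 and FKO2 (adjusted p = 0.111 and 0.298; two-sided exact permutation p = 0.0317 with no adjustment), which DESeq2 called (adjusted p = 0.0202) and which edgeR called when no filter on low counts was used (adjusted p = 0.0146).

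Because part of C4a cannot be told from C4b, its share of the counts of both genes was also taken within each mouse. It was 0.191% ± 0.041 in WT females (SD, n = 3), 2.97% ± 1.1 in WT males (n = 3), 0.698% ± 0.33 in ESR1KO females (n = 5) and 0.807% ± 0.29 in ESR1KO males (n = 4). FKO1 and FKO2, whose C4b was low, had the highest shares of the ESR1KO females, 1.16% and 0.896%, and without them the mean was 0.479% ± 0.12 (n = 3). If the same share of C4b reads had been counted as C4a in every mouse, it could not have exceeded 0.147%, the share in the lowest mouse. The highest share in any WT female, 0.228%, was below the lowest in any other mouse, 0.344%. How reads that match both copies were counted is not given in the sources used here.

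The C4 region was read for neighbours that moved with C4a. Cyp21a1, the steroid 21-hydroxylase gene of the adrenal cortex, lies 4.53 kb from C4a, and its counts summed to 2 over the WT females, 71 over the WT males, 16 over the ESR1KO females and 21 over the ESR1KO males. At these low counts it was called lower in WT females than in WT males (adjusted p = 0.00111) and lower in ESR1KO than in WT males (adjusted p = 0.0428), with an interaction that missed the threshold (adjusted p = 0.0663). Of all 16 neighbours tested, 3 were called lower in WT females, or 18.75% against 2.20% of all genes. They were Cyp21a1, Stk19 with a log2 difference of -0.52 ± 0.13 (adjusted p = 0.0289) and C2 with -0.78 ± 0.21 (adjusted p = 0.0378). Hspa1b, a heat shock protein gene, was called higher in ESR1KO than in WT females (log2 difference 0.93 ± 0.24, adjusted p = 0.0325). It was the 1 neighbour called there, or 6.25% against 3.14% of all genes called higher. The medians of the 16 neighbours lay between -0.14 and 0.00 over the 5 comparisons. Tnxb, 8.56 kb from C4b on the other side, was not called in any.

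Hc encodes C5, whose cleavage starts the terminal pathway and releases the C5a fragment that attracts leukocytes. The gene lies at chr2:34983331-35061438, and an antisense transcript, Gm13449, overlaps it. Hc was at 1127, 1047 and 1143 CPM in WT females and at 1982, 1611 and 1985 CPM in WT males. ESR1KO females had 907, 923, 1034, 1063 and 1257 CPM, and ESR1KO males 1053, 1202, 1064 and 1162 CPM. Only the WT males stood apart, above every mouse of the other 3 groups.

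Hc was 1.68-fold lower in WT females than in WT males (log2 difference -0.75 ± 0.14, adjusted p = 0.00388) and 1.66-fold lower in ESR1KO than in WT males (-0.73 ± 0.13, adjusted p = 0.00807). In females the genotypes differed by -0.09 ± 0.13 on the log2 scale (adjusted p = 0.702). The interaction, 0.64 ± 0.18, missed the threshold (adjusted p = 0.102), was called without FKO1 and FKO2 (0.75, adjusted p = 0.0160) and was called by DESeq2 (adjusted p = 0.0103). Without the third WT male the fall in ESR1KO males was -0.68 with an adjusted p of 0.0560.

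C6 binds cleaved C5 as the first step of the membrane attack complex. The gene lies at chr15:4727175-4814967. C6 was at 18.6, 26.6 and 25.8 CPM in WT females and at 409, 423 and 348 CPM in WT males. ESR1KO females had 112, 81.6, 117, 103 and 154 CPM, and ESR1KO males 146, 226, 136 and 167 CPM. All 4 groups stood apart except that the ESR1KO sexes overlapped.

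C6 was 16.6-fold lower in WT females than in WT males (log2 difference -4.06 ± 0.24, adjusted p = 8.44e-09). It was 4.80-fold higher in ESR1KO than in WT females (2.26 ± 0.21, adjusted p = 4.66e-06), the widest genotype difference of the 9 in females, and 2.33-fold lower in ESR1KO than in WT males (-1.22 ± 0.20, adjusted p = 0.00447). The interaction was 3.49 ± 0.29 (adjusted p = 1.87e-06) and 3.62 without FKO1 and FKO2. ESR1KO females and males differed by -0.57 ± 0.18 on the log2 scale, or by -0.44 without FKO1 and FKO2 (adjusted p = 0.148 and 0.375; two-sided exact permutation p = 0.0476 with no adjustment).

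C8 joins the growing complex and is the first component to enter the membrane. It is built of an alpha and a gamma chain, linked by a disulfide bond, and a beta chain. C8a, at chr4:104815679-104876398, and C8b, at chr4:104766317-104804548, lie tail to tail with 11.1 kb between them, whereas C8g, which encodes a lipocalin, lies at chr2:25498651-25501719.

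C8a was at 415, 372 and 370.4 CPM in WT females and at 1230.2, 1219.9 and 1383 CPM in WT males. ESR1KO females had 811, 722, 810.3, 829 and 1041 CPM, and ESR1KO males 713, 897, 630.2 and 831 CPM. The ESR1KO mice of both sexes lay in 1 band between the WT groups. C8a was 3.31-fold lower in WT females than in WT males (log2 difference -1.73 ± 0.16, adjusted p = 1.65e-06), 2.18-fold higher in ESR1KO than in WT females (adjusted p = 0.000119) and 1.66-fold lower in ESR1KO than in WT males (adjusted p = 0.0141). The last of these missed the threshold without the third WT male (adjusted p = 0.0876) and without the first or the third ESR1KO male (adjusted p = 0.0596 and 0.0531). The interaction was 1.86 ± 0.20 (adjusted p = 3.29e-05), and 1.95 without FKO1 and FKO2.

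C8b was at 219, 195 and 204 CPM in WT females and at 619, 624 and 573 CPM in WT males. ESR1KO females had 283, 314, 373, 430.2 and 448 CPM, and ESR1KO males 313, 556, 229 and 372 CPM. The ESR1KO males were widely spread, from just above the WT females to just below the WT males. C8b was 2.94-fold lower in WT females than in WT males (log2 difference -1.55 ± 0.24, adjusted p = 0.000681), and the interaction was 1.56 ± 0.31 (adjusted p = 0.0118), or 1.74 without FKO1 and FKO2. It was 1.79-fold higher in ESR1KO than in WT females (adjusted p = 0.0353), a call that was lost without any 1 of the 3 WT females (adjusted p = 0.0934, 0.129 and 0.133) or without FKO4 (adjusted p = 0.0616). In males the log2 difference of -0.72 ± 0.22 missed the threshold (adjusted p = 0.145) and passed it at -0.99 without the second ESR1KO male (adjusted p = 0.0125).

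C8g did not follow the other C8 chains. It was at 225, 254 and 269 CPM in WT females and at 317, 267 and 251 CPM in WT males, and the ESR1KO mice lay between 247 and 311 CPM. No comparison was called, and the largest log2 difference of the 4 between groups was 0.18 ± 0.11 (ESR1KO minus WT females, adjusted p = 0.361). Its first exon region overlaps Fbxw5 on the opposite strand, and whether counting used strand is not given in the sources used here.

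Per kilobase of exon the 3 chains could be set on 1 scale. In WT females C8g was the highest with 167 ± 15 CPM per kb (SD, n = 3), over 106 ± 6.9 for C8a and 81.0 ± 4.8 for C8b. In WT males the order turned, with 351 ± 25 for C8a, 238 ± 11 for C8b and 186 ± 23 for C8g (SD, n = 3). Within each mouse the ratio of C8a to C8g was 0.566 to 0.759 in WT females, 1.59 to 2.26 in WT males, 0.957 to 1.61 in ESR1KO females (1.21 to 1.61 without FKO1 and FKO2) and 0.926 to 1.36 in ESR1KO males. The ratio of C8a to C8b moved less, with means of 1.31, 1.48, 1.62 and 1.55 in the same order. Exon lengths are those of all annotated exons merged, so the scale depends on which transcripts liver uses.

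**Figure D5:**
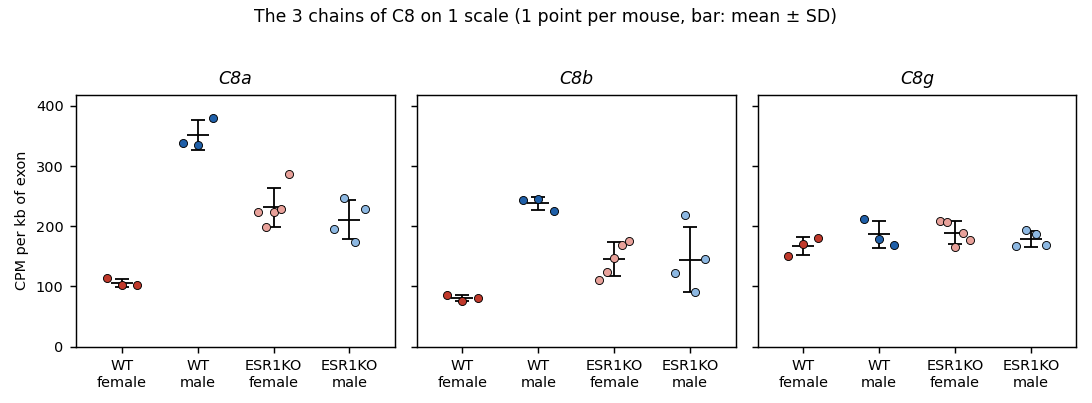
Levels of C8a, C8b and C8g in CPM per kb of merged exon (vertical axis, shared and starting at 0) in the 4 groups, with 1 point per mouse and bars for the mean ± SD. C8a and C8b change between groups while C8g stays between 150.4 and 212 CPM per kb.

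C9 closes the complex as the ring that forms the pore. The gene lies at chr15:6445327-6498751, on the same chromosome as C6 and 1630 kb from it. C9 was at 178, 210.1 and 231 CPM in WT females and at 963, 672 and 777 CPM in WT males. ESR1KO females had 586, 407, 339.5, 399 and 457 CPM, and ESR1KO males 326, 478, 349.8 and 374 CPM. The ESR1KO sexes overlapped each other and stood apart from both WT groups.

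C9 was 3.90-fold lower in WT females than in WT males (log2 difference -1.96 ± 0.20, adjusted p = 7.56e-06). It was 2.12-fold higher in ESR1KO than in WT females (1.08 ± 0.18, adjusted p = 0.00200) and 2.11-fold lower in ESR1KO than in WT males (-1.07 ± 0.18, adjusted p = 0.00572). The interaction was 2.16 ± 0.26 (adjusted p = 9.68e-05), and 2.02 without FKO1 and FKO2. Of 9 tested genes around C6 and C9, among them Oxct1, Rictor and Osmr, 0 were called in any of the 5 comparisons by edgeR or DESeq2. Over these comparisons edgeR called 0.272% to 5.71% of all genes, so 0 of 9 is near that share. In a single comparison at most 3 of the 9 had an unadjusted p under 0.05. This was between ESR1KO and WT females, where 3973 of all 17655 genes did.

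An exact two-sided permutation test was run on single genes, with p taken by doubling the smaller tail. Under this rule p could not go below 0.1 between 3 and 3 WT mice, 0.0571 between ESR1KO and WT males and 0.0357 between ESR1KO and WT females. C4a, C6, C8a, C8b and C9 reached each of these smallest values, since their groups did not overlap. Hc reached 0.1 between the WT sexes and 0.0571 in males, C3 and C4b reached 0.1 between the WT sexes, and C3 reached 0.0357 in females. The calls given here therefore rest on the variance that edgeR shares among genes.

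The mice with the highest and the lowest level of each gene were listed within the ESR1KO groups. How often a single mouse is highest or lowest over all genes was not counted. Among ESR1KO males, the second mouse was highest for 7 of the 9 genes (C4a, Hc, C6, C8a, C8b, C8g and C9) and lowest for C3 and C4b. The third was highest for C3 and C4b and lowest for C6, C8a and C8b. The first was lowest for Hc, C8g and C9, and the fourth for C4a. Among ESR1KO females, FKO5 was highest for 5 genes, C3, Hc, C6, C8a and C8b, and lowest for C4a. FKO1 was lowest for C3, C4b, Hc and C8b but highest for C8g and C9. FKO2 was lowest for C6 and C8a, and FKO3 was highest for C4a and C4b and lowest for C8g and C9. The GC trends of the second and the third ESR1KO male were -0.17 and 0.22, and their part in these orders was not tested.

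The genes most like each of the 5 in pattern were looked up by the root mean square difference of log2 CPM over the 15 libraries, each gene centred on its own mean. C8a and C8b were each within the 3 nearest genes of the other, out of 17655 genes, at a difference of 0.217. C8a was also the nearest gene to C9, at 0.259, followed by Nudt7 at 0.283 and Adh6-ps1 at 0.299. Nearest to C6 were Gstp1 at 0.214, Gstp-ps at 0.337 and Lama3 at 0.457. C4a was nearest to Cyp7b1 at 0.551, Gstp1 at 0.567 and Gstp-ps at 0.571, all farther than the neighbours of the other members. Serpina3c was near to both C8a (0.212) and C8b (0.259), with F2r the third for C8a (0.219) and Afp the third for C8b (0.276). Cyp7b1 and Gstp1 are known male-biased liver genes, a hydroxylase of oxysterols and a glutathione transferase, and their mean levels were 722 and 1502 CPM in WT males against 52.9 and 102 CPM in WT females.

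The rest of the complement system was read as a list. This list of 49 other complement genes, covering initiation, C3 cleavage, C7, regulators and receptors, had 45 tested genes. Between WT females and males, 2 of them were called higher and 2 lower in females, or 8.89% against 4.87% of all genes, with a median log2 difference of 0.02. Among ESR1KO mice, 2 were called higher in females and 0 lower, or 4.44% against 0.272% of all genes. In that comparison 20 of the 45 had an unadjusted p under 0.05, where 17.5% of all genes did, and DESeq2 called 6. Between ESR1KO and WT, 3 were called higher and 1 lower in females (8.89% against 5.71% of all genes), and 1 higher in males (2.22% against 1.42%). By edgeR the interaction was called for 0 of the 45, with 10 at an unadjusted p under 0.05, and DESeq2 called 3.

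C7, which binds the complex of C5 and C6, was near the limit of detection in liver, with group means of 0.854 to 1.36 CPM. Its log2 difference between WT females and males was -0.67 ± 0.27 (adjusted p = 0.204). C2, the partner of C4b, was at 72.2 CPM in WT females and 124 CPM in WT males, and the only other male-biased gene called was C4bp, the inhibitor that binds C4b, with a log2 difference of -0.52 ± 0.11 (adjusted p = 0.0113). C4bp was also higher in ESR1KO than in WT females (0.42 ± 0.10, adjusted p = 0.0253). Its WT female mean of 467 CPM was below the 669.9, 625 and 621 CPM of WT males, ESR1KO females and ESR1KO males.

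In the opposite direction, Mbl2, a mannose-binding lectin that starts the lectin route, was higher in WT females (log2 difference 0.96 ± 0.15, adjusted p = 0.000716), with 577 CPM against 296 CPM. Properdin (Cfp), which stabilizes the C3-cleaving enzyme and is encoded on the X chromosome, was higher in females in both genotypes (0.48 ± 0.12 in WT, adjusted p = 0.0265; 0.61 ± 0.10 in ESR1KO, adjusted p = 0.00990). Vsig4, a C3 receptor of liver macrophages, was higher in ESR1KO females than in ESR1KO males (0.61 ± 0.11, adjusted p = 0.0210), and its interaction term was not called (0.42 ± 0.17, adjusted p = 0.273). Over 7 markers of Kupffer cells, the macrophages of the liver, the median log2 difference in this comparison was 0.43. edgeR called 0 of the 7 and DESeq2 4, and 4 had an unadjusted p under 0.05 (Clec4f 0.41, Adgre1 0.46, Cd5l 0.48 and Timd4 0.43). The rest were Marco at 0.46, with a standard error of 0.34, Csf1r at 0.05 and Cd68 at -0.01. The summed level of all 7 was 348 to 475 CPM in ESR1KO females and 299 to 384 CPM in ESR1KO males, and its part in the Vsig4 difference was not tested.

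Between the genotypes in females, Mbl1 rose by 0.57 ± 0.16 on the log2 scale (adjusted p = 0.0465) and Gm4788, a gene of the factor H family, by 0.62 ± 0.17 (adjusted p = 0.0428). Masp1, a protease of the lectin route, fell by 0.43 on the same scale (adjusted p = 0.0429). In males the call was Cfd, factor D of the alternative route and a product mainly of fat cells, whose counts summed to 8 over the WT males and 703 over the ESR1KO males (adjusted p = 0.00701). A single ESR1KO male held 535 of these 703 counts.

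Acute phase genes, which liver raises in inflammation and with which C3 and C4b are often grouped, were given for comparison. Of 29 genes tested, 2 were called higher and 3 lower in WT females than in WT males, or 17.2% against 4.87% of all genes, with 13 at an unadjusted p under 0.05 (17.3% of all genes) and 10 called by DESeq2. By edgeR 0 were called between the ESR1KO sexes, where 4 had an unadjusted p under 0.05 and DESeq2 called 1. The 3 lower were Il1r1, Saa1 and Saa2. Saa1 ranged from 24.3 to 182 CPM among the 3 WT males, so its log2 difference of -2.78 ± 0.50 (adjusted p = 0.00216) varied with the mouse, while the terminal complement genes in the same males varied at most 1.43-fold. By edgeR the interaction was called for Il1r1, at 1.26 ± 0.26 (adjusted p = 0.0150), while 11 of the 29 had an unadjusted p under 0.05 (14.3% of all genes) and DESeq2 called 7. It was 2.31 ± 0.61 for Saa1 (adjusted p = 0.0708) and 1.54 ± 0.40 for Saa3 (adjusted p = 0.0624).

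Markers of other cell types were read beside these results. Of 26 macrophage, endothelial, stellate, blood and lymphoid markers tested, 0 were called by edgeR in any of the 5 comparisons. Over these it called 0.272% to 5.71% of all genes. In each comparison 1 to 8 markers had an unadjusted p under 0.05, and DESeq2 called 0 to 5. The 8 and the 5 were both between the ESR1KO sexes, where 17.5% of all genes had an unadjusted p under 0.05. The summed macrophage markers ranged from 381 to 474 CPM in WT females and from 362 to 394 CPM in WT males, beside the ESR1KO ranges given with Vsig4. The summed hepatocyte markers were 103732 to 111737 CPM in WT females and 77232 to 79523 CPM in WT males. These sums include Alb, the one hepatocyte marker called by edgeR, higher in WT females than in WT males (log2 difference 0.66 ± 0.18, adjusted p = 0.0382). That is 14.3% of the hepatocyte markers, against 4.87% of all genes. The median log2 difference over the 7 hepatocyte markers in this comparison was -0.05, and DESeq2 called 3 of them.

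Among 5 bile duct markers, Epcam was higher in WT females than in WT males (log2 difference 1.08 ± 0.22, adjusted p = 0.00657) with an interaction of -1.17 ± 0.28 (adjusted p = 0.0390), and Sox9 was lower (-1.03 ± 0.27, adjusted p = 0.0384). Spp1 was called higher in ESR1KO females, and Krt19 and Epcam in ESR1KO males. Between the WT sexes 40% of the 5 were thus called, against 4.87% of all genes. Between the genotypes it was 20% against 5.71% in females and 40% against 1.42% in males, and for the interaction 20% against 1.94%. The summed level of all 5 ranged from 32.4 to 32.9 CPM in WT females, 34.0 to 55.6 CPM in WT males, 43.7 to 51.4 CPM in ESR1KO females and 41.3 to 59.3 CPM in ESR1KO males. The part of cell composition in the levels of the 9 genes was not tested.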

How the data were processed

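Per the labels and the study's methods, the authors trimmed the reads with Trimmomatic 0.36, mapped them with STAR to GRCm38 and tallied reads over genes with HTSeq, which the labels give as version 0.6.0. The deposited values are raw counts for 55573 genes in 15 libraries (27799061 to 78624766 counts each). Which gene annotation was used, whether strand was taken into account and how reads matching several genes were handled are not given in the sources used here. edgeR 4.0.16 in R 4.3.3 filtered low genes by expression (filterByExpr), scaled the counts by TMM and fitted 1 quasi-likelihood model of 4 groups, with contrasts between them and Benjamini-Hochberg adjustment over 17655 genes. DESeq2 1.42.0 was an alternative, beside other scaling, other filters (1 CPM in 3 libraries, or none), a block on replicate number, fits of the compared groups alone, 15 fits without 1 library each, a fit without FKO1 and FKO2 and a GC offset in 20 bins. The last 2 were added after the data were seen. The pipeline was tested on simulated counts. Genes were matched to GENCODE M21 for position, length and GC content (55394 of 55573). p-values measure the spread between mice as labelled. The members and all lists were chosen with earlier results of these data known. By the rule for naming, all 9 members were named, and of each other list at most 6 genes called in a contrast, the C4, C6 and C9 neighbours, and the 3 genes nearest in pattern to each member whose interaction was called.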

Additional observations from a re-analysis of the deposited data

Results flagged for a closer look

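The genotype effect differed between females and males for 5 of the 9 genes, by edgeR's interaction term with p adjusted over all tested genes. On the log2 scale the effect in females exceeded that in males by 3.49 for C6 (adjusted p = 1.87e-06), by 3.43 for C4a (adjusted p = 1.22e-05), by 2.16 for C9 (adjusted p = 9.68e-05), by 1.86 for C8a (adjusted p = 3.29e-05) and by 1.56 for C8b (adjusted p = 0.0118). In each of the 5, every ESR1KO female was higher than every WT female and every ESR1KO male lower than every WT male. These calls were made in all 15 fits that left out 1 library and in the fit without FKO1 and FKO2. A test for a single outlying mouse, which needs at least 4 mice in a group, was run for each gene in both ESR1KO groups (18 tests) and found 0 outliers.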

How the results depend on the processing

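Between the ESR1KO sexes, edgeR called 0 of the 9 genes, against 1 (C4a) with no filter on low counts, 1 (C4a) with DESeq2 and 2 (C4a and C6) at an unadjusted p under 0.05. Requiring a log2 change of at least 1.5 left 1 gene of 5 between the genotypes in females (C6) and 1 of 5 in males (C4a). With 1 library left out at a time, the counts ranged from 6 to 7 between the WT sexes, 0 to 0 between the ESR1KO sexes, 3 to 6 between the genotypes in females (3 without the first WT female), 3 to 6 in males (3 without the third WT male) and 5 to 6 for the interaction. Signs turned only for differences that were not called. Between the ESR1KO sexes these were C3 (main 0.10 on the log2 scale, -0.14 with the replicate block, -0.10 to 0.25 with 1 library left out), C8b (main 0.01, -0.0437 with the replicate block, -0.0027 with DESeq2, -0.16 to 0.28 with 1 library left out), C4b (0.0103 without FKO1 and FKO2) and C8g (-0.0180 without them). The others were Hc between the genotypes in females (0.0150 without FKO1 and FKO2), C8g between the genotypes in males (-0.125 to 0.0478 with 1 library left out) and the interaction of C4b (0.23 without FKO1 and FKO2, -0.280 to 0.0303 with 1 library left out). The cause of these changes was not tested.

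Replicate numbers shared by the groups do not come from shared animals, and the correlations of same-numbered libraries ranged from -0.195 to 0.140 over all pairs, so the numbers were not taken as a pairing. With a block on the replicate number, 7 genes were called between the WT sexes (C3 added), 0 between the ESR1KO sexes, 5 between the genotypes in females (C3 in place of C8b), 5 in males and 5 for the interaction. Among ESR1KO females, C3, C4b, Hc and C8b were lowest in FKO1 and FKO2, those with a negative GC trend. With the GC offset the log2 difference between ESR1KO and WT females was -0.75 for C3 and -0.34 for C4b. In the full model these were -0.80 and -0.40. The part of GC content in the spread of ESR1KO females was not tested, and this spread limits how closely those means are known. With 3 mice per WT group, exact tests between the WT sexes cannot reach 0.05.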
